A study of Homo sapiens with 27 samples.

Results

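The ATP-binding cassette (ABC) transporter genes were taken as the protein-coding genes whose symbol is ABC followed by a subfamily letter A to G and a number. Of the 60619 genes of the deposited table, 45 met this rule, with 12 in subfamily ABCA, 9 in ABCB, 11 in ABCC, 4 in ABCD, 1 in ABCE, 3 in ABCF and 5 in ABCG. They were measured by RNA-Seq in MM134 and SUM44, estrogen receptor-positive cell lines from invasive lobular breast carcinoma, and in their long-term estrogen-deprived (LTED) variants. The 9 groups were 3 parental cultures (MM134, SUM44F and SUM44PE), 4 LTED lines from MM134 (A, B, D and E), and 2 from SUM44 (A and B). Each group had 3 libraries from wells of 1 culture, so the tests measure the spread between wells and each variant stands for a single derived line. Parental cells were kept without hormones for 3 days before collection, while the variants were kept in hormone-deprived serum throughout, and SUM44F is SUM44PE adapted to the medium and serum used for MM134. In each cell line the question was which transporters had changed in cells that grow without estrogen.

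ABC proteins bind ATP and use its hydrolysis to drive a conformational change, which in most members moves a substrate across a membrane. Most ABCA and ABCG members move sterols and other lipids, many ABCC members and the best known ABCB members export drugs, bile salts and conjugates with glutathione or glucuronic acid, and several ABCD members carry acyl-CoA into peroxisomes. ABCE1 and the ABCF members lack membrane-spanning parts and act on the ribosome. In breast cancer the family is best known for ABCB1, ABCC1 and ABCG2, the efflux pumps of multidrug resistance.

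Counts per library summed to between 28583554 and 134882175. In SUM44 LTED-A, replicates 2 and 3 were closer to each other than sampling noise alone gives (chi-square per degree of freedom 0.312). The other 26 pairs had 2.35 to 58.3. The highest values, 58.3 and 56.7, were those of LTED-A replicate 1 against replicates 2 and 3. Replicates 2 and 3 were counted as 1 sample, which is named LTED-A replicate 2 below and leaves 26 samples. Markers of luminal epithelium (ESR1, FOXA1, GATA3, KRT8, KRT18, KRT19 and XBP1) were present in every group, with a summed level of 5387 to 9590 CPM (counts scaled to library size). SUM44F replicate 1 stood apart. Its 5 fibroblast markers (COL1A1, COL1A2, DCN, LUM and PDGFRB) summed to 226.5 CPM and all 5 reached 1 CPM, against 8.77 and 7.93 CPM in the other SUM44F libraries and at most 30.4 CPM elsewhere. Each result that rests on this library is therefore given without it where a call changed. Endothelial markers (PECAM1, VWF and CDH5) summed to 25.8 to 40.5 CPM in SUM44F, 10.8 to 11.1 CPM in SUM44PE and 2.80 to 4.51 CPM in the SUM44 variants. In SUM44F the means of the single markers ran from 0.344 to 25.3 CPM, so 1 marker carried most of the sum. Adipocyte markers (ADIPOQ, PLIN1 and LEP) stayed between 1.51 and 8.59 CPM in all libraries. CD68 and LYZ, which macrophages express, were higher in the MM134 variants than in their parental cells. CD68 had a mean of 0.216 CPM in MM134 parental cells and of 14.4, 6.80, 3.99 and 2.59 CPM in variants A, B, D and E, and LYZ one of 0.275 CPM and of 9.75, 1.77, 0.712 and 2.16 CPM, with no overlap between parental and variant libraries for either gene. PTPRC, the general leukocyte marker, CD14 and CD3E were at most at 0.365, 0.292 and 0.0561 CPM in any MM134 library. Among the SUM44F libraries, replicate 1 also had the highest PTPRC, CD14 and CD68, at 2.60, 1.82 and 3.95 CPM. The lowest SUM44F values of these genes were 0.332, 0.0445 and 1.54 CPM. In bulk RNA, fewer cells of a type and less RNA per cell cannot be told apart, and the part of these markers in the results below was not tested.

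The level of the family as a whole, summed per kilobase of transcript so that genes can be compared, was higher in every SUM44 group than in any MM134 group. It was 286.6 ± 2.59 CPM per kb (SD, n = 3) in MM134 parental cells and 527.4 ± 13.2 CPM per kb (n = 3) in SUM44F. The difference lay mostly in ABCD, which held 19.2% ± 0.202 of the family level in MM134 parental cells and 48.1% ± 2.67 in SUM44F. Within ABCD it lay mostly in ABCD3, whose levels are given below. In the 4 MM134 LTED variants the family sum was 333.0 to 367.1 CPM per kb, above the parental value in each. In SUM44 LTED-A and LTED-B it was 580.7 ± 54.2 (n = 2) and 553.8 ± 4.41 CPM per kb (n = 3), so LTED-A differed from SUM44F by less than its own SD.

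**Figure D1:**
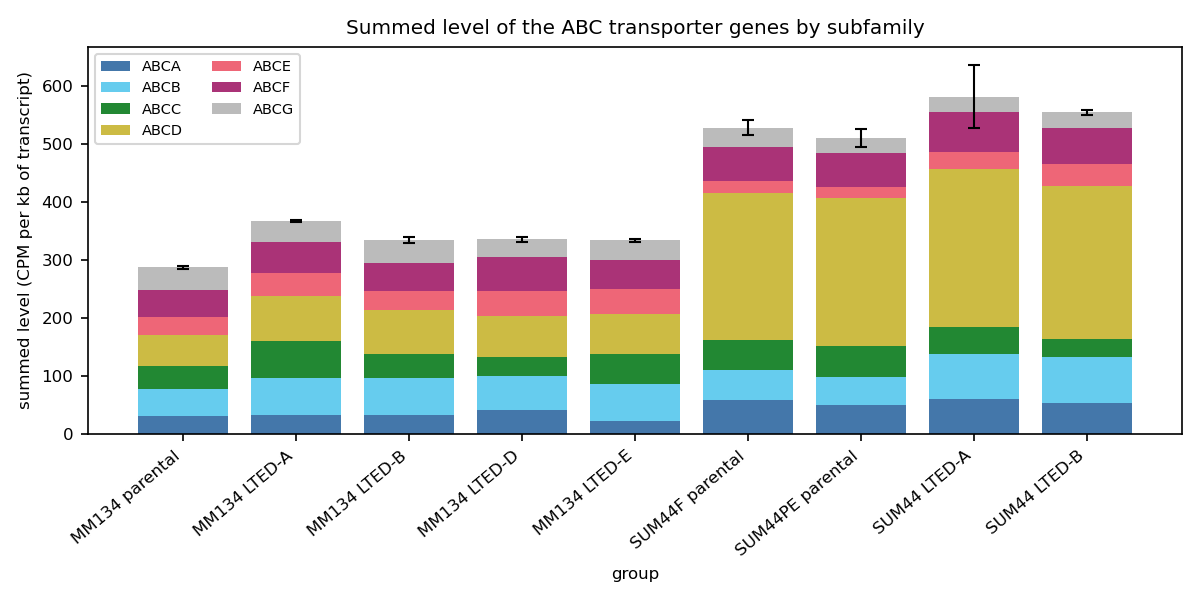
Summed level of the 45 ABC transporter genes in each group in CPM per kb of transcript, stacked by subfamily. Error bars are the SD of the family sum over the samples of a group (n = 3, and 2 for SUM44 LTED-A). The ABCD segment makes up 19.2% of the bar in MM134 parental cells and 48.1% in SUM44F.

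Averaged over the 9 groups, the 8 members with the highest level per kilobase were ABCD3, ABCE1, ABCG1, ABCF1, ABCB6, ABCA3, ABCF2 and ABCC11. ABCD3, an abundant protein of the peroxisomal membrane that imports branched-chain acyl-CoA, reached 40.8 ± 1.15 CPM per kb in MM134 parental cells and 232.7 ± 10.4 CPM per kb in SUM44F (n = 3 each). It kept the first place when length was taken over all merged exons instead of the representative transcript. ABCE1, which splits ribosomes for recycling, averaged 33.0 CPM per kb over the groups and ranged from 18.9 to 43.3. ABCG1, which loads cholesterol onto high-density lipoprotein, averaged 32.3 CPM per kb with a range of 25.7 to 40.4. ABCF1, a translation factor, averaged 31.3 CPM per kb with a range of 26.1 to 41.8. These 3 genes therefore held similar levels, and their order over the groups is not resolved by their ranges. ABCB6, a porphyrin transporter of mitochondria and lysosomes, averaged 26.7 CPM per kb. ABCA3, the phospholipid transporter of lamellar bodies, averaged 19.99 CPM per kb, ABCF2 14.7 and ABCC11 14.5.

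At the other end, the drug efflux pumps ABCB1 and ABCG2 were barely detected. ABCB1 stood at 0.955, 0.293 and 0.256 CPM in SUM44F replicates 1, 2 and 3, so that the mean of 0.501 CPM was carried by replicate 1, the library with fibroblast markers. The group mean was at most 0.244 CPM everywhere else. ABCG2, the breast cancer resistance protein, had at most 0.110 CPM on average in any group. ABCC1, by contrast, held 16.7 to 39.6 CPM. ABCD2 and ABCG8 had no more than 3 counts in any library and were treated as below detection, and such a level was not detectable at this depth rather than shown to be absent. After a filter on low counts 40 members were tested in MM134 (all but ABCB1, ABCD2, ABCG2, ABCG4 and ABCG8) and 41 in SUM44, where ABCB1 passed as well.

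The parental cells were compared first, to show which transporters each cell line starts with. Members were called changed if they had a fold change above 1.5 and, in edgeR's quasi-likelihood test, a p below 0.001 after Benjamini-Hochberg adjustment over all genes tested. Of 41 members tested, 20 differed between MM134 parental cells and SUM44F, against 38.1% of all genes, and 15 of the 20 were lower in MM134 (19.2% of all genes were lower and 18.9% higher). ABCA4, the retinoid flippase of photoreceptors, differed most among the detected members. It stood at 219.8 ± 30.6 CPM in SUM44F and 0.232 ± 0.179 CPM in MM134 parental cells, a log2 difference of -9.82 ± 0.20 (SE, edgeR adjusted p = 5.8e-21). The MM134 parental libraries held 1 to 14 counts of ABCA4, so the size of this difference rests on few counts. ABCA4 remained between 156.4 and 177.0 CPM on average in the other SUM44 groups and at or below 0.529 CPM in the MM134 variants. ABCC2, the apical exporter of conjugates, stood at 77.7 CPM in SUM44F and 0.787 CPM in MM134 parental cells. ABCA12, a ceramide transporter of skin, stood at 34.0 CPM in SUM44F and 1.23 CPM in MM134 parental cells. Higher in MM134 parental cells were ABCC8, ABCC6, ABCA2, ABCC3 and ABCA7, with log2 differences of 1.17 to 3.32.

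ABCD3 was lower in MM134 parental cells than in SUM44F by a log2 difference of -2.53 ± 0.07 (edgeR adjusted p = 2.9e-18). ABCA4 and ABCD3 lie 297.2 kb apart on chromosome 1. The 40 expressed genes around them had a median log2 difference of -1.23 in the same comparison, and the part of that regional difference in either value was not tested. Without SUM44F replicate 1 the count stayed at 20, but ABCB1 and ABCF3 (log2 difference -0.58) were no longer called while ABCA1 (1.21) and ABCB8 (0.65) were. ABCB1, below detection in MM134 parental cells, was at least 5.70-fold lower there than in SUM44F against a floor of 3 counts per library, and at least 3.12-fold lower without SUM44F replicate 1. The call of ABCB1 was also lost without MM134 parental replicate 1 or 2, that of ABCA9 without MM134 parental replicate 1 (-0.80), and that of ABCF3 without MM134 parental replicate 1 (-0.58) or SUM44F replicate 2 (-0.57).

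**Figure D2:**
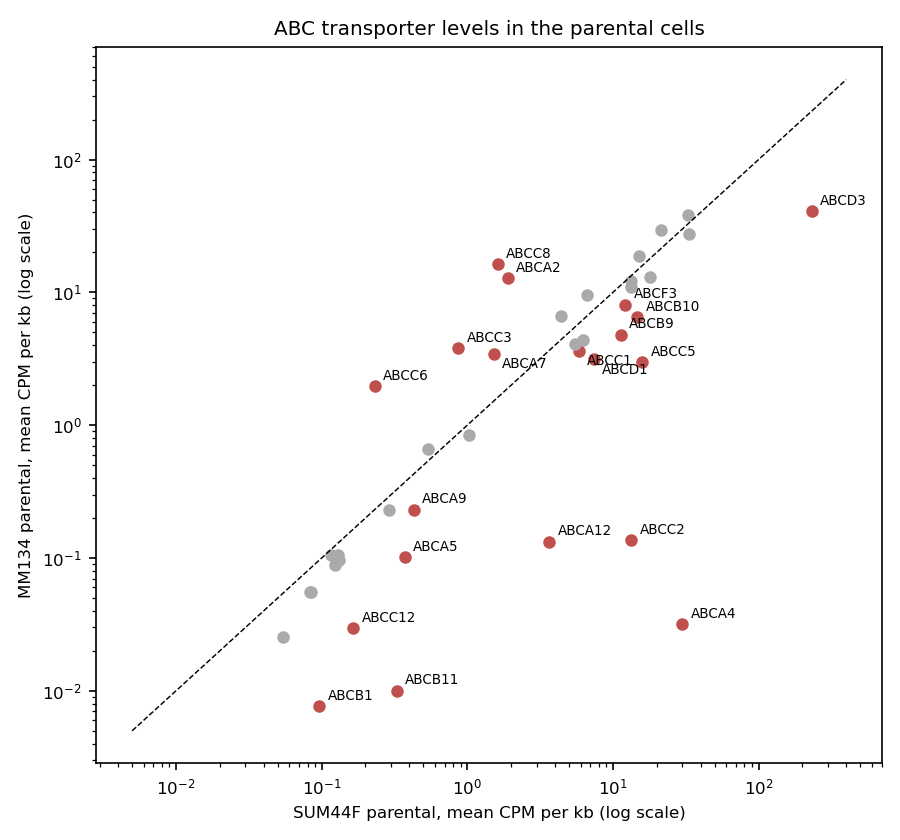
Mean level of each tested member in SUM44F (x axis) and in MM134 parental cells (y axis), n = 3 libraries each, in CPM per kb of transcript on log scales. Red points are the 20 members that passed the thresholds, grey points the others, and the dashed line marks equal levels. ABCA4 lies farthest below the line, and ABCB1 and ABCB11 were below detection in MM134 parental cells.

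In MM134, 20 of the 40 members tested changed in at least 1 LTED variant, against 29.9% of all genes. LTED-A had 12 changed members against 20.3% of all genes, of which 10 rose (10.5% of all genes rose) and 2 fell (9.82%). LTED-B had 11 against 15.9%, with 8 up (8.11%) and 3 down (7.75%). LTED-D had 15 against 17.6%, with 9 up (9.63%) and 6 down (7.95%). LTED-E had 11 against 19.0%, with 8 up (8.71%) and 3 down (10.3%). The median log2 change over the tested members was 0.25, 0.12, 0.24 and 0.07 in variants A, B, D and E, while over all genes it lay between -0.03 and 0.02. The 4 comparisons share the parental libraries. In at least 3 variants 7 members rose, against 6.66% of all genes, namely ABCA5, ABCA12, ABCB6, ABCC2, ABCC3, ABCC11 and ABCC12. In at least 3 variants 2 members fell, ABCA2 and ABCC8, against 6.83% of all genes.

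**Figure D3:**
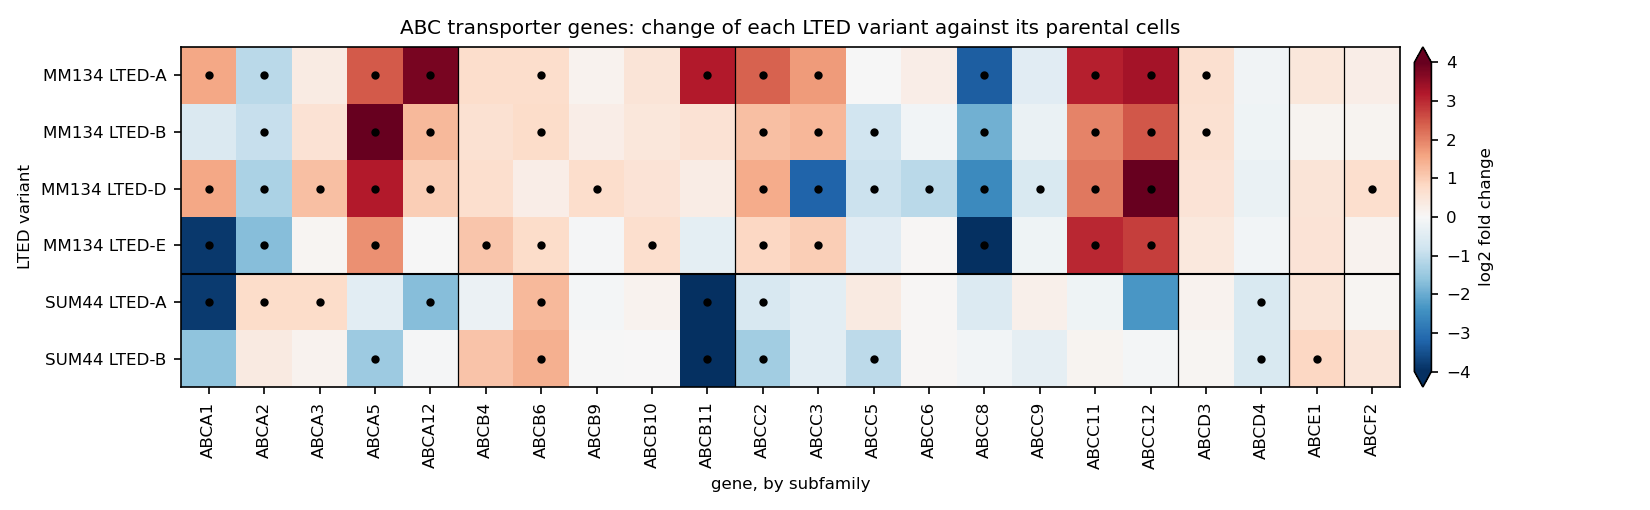
Log2 fold change of the members called in at least 1 LTED variant (columns, ordered by subfamily) in each variant against its parental cells (1 line of cells per variant), on a colour scale cut at -4 and 4. Black dots mark values past both thresholds. The ABCC11 and ABCC12 columns are red in all 4 MM134 variants, and ABCC8 is blue in them.

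ABCC11, which exports cyclic nucleotides and steroid conjugates, rose in all 4 variants. The gene (ENSG00000121270, chr16:48165773-48247568, minus strand) stood at 24.3, 23.2 and 24.5 CPM in the parental libraries. It stood at 207.0, 209.4 and 209.8 CPM in variant A, at 91.8, 98.6 and 94.4 CPM in LTED-B, at 101.2, 105.3 and 101.2 CPM in LTED-D, and at 191.9, 193.8 and 189.6 CPM in LTED-E. Every variant library lay above every parental one, and LTED-A and LTED-E were about level with each other and above LTED-B and LTED-D. The log2 change ran from 1.99 ± 0.03 in LTED-B to 3.12 ± 0.03 in LTED-A (edgeR adjusted p = 7.5e-19 and 9.1e-22). ABCC11 overlaps LONP2, a peroxisomal protease on the opposite strand, over 3269 bases, and whether strand was used in counting is not stated. LONP2 changed by 0.23 to 0.42 on the log2 scale in the 4 variants and was not called in any of them.

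ABCC12, whose substrate is not settled, lies 9.755 kb from ABCC11 on the same strand and rose in the same variants from a far lower level. The gene (ENSG00000140798, chr16:48080882-48156018, minus strand) had 5, 7 and 10 counts in the parental libraries, or 0.143, 0.189 and 0.324 CPM. It reached 2.33, 2.01 and 2.16 CPM in variant A, 1.37, 1.06 and 1.17 CPM in LTED-B, 4.29, 4.01 and 3.93 CPM in LTED-D, and 1.63, 1.33 and 1.46 CPM in LTED-E. No variant library overlapped the parental ones, and LTED-D rather than LTED-A was the highest. The log2 change ran from 2.48 ± 0.23 in LTED-B to 4.24 ± 0.20 in LTED-D (edgeR adjusted p = 3.3e-08 and 1.6e-12). The 40 expressed genes around both genes had a median log2 change of 0.05 to 0.16 in the 4 variants. In SUM44, ABCC11 and ABCC12 were not called in either variant, with log2 changes of -0.18 and 0.10 for ABCC11 and -2.34 and -0.08 for ABCC12. ABCC12 in SUM44 LTED-A was called without SUM44F replicate 1 (log2 change -2.57, edgeR adjusted p = 0.00019).

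The stretches before the starts of both genes are shown because the genes are neighbours that rose together. They come from RefSeq (GRCh38.p14, minus strand, 5′ to 3′) and end where the annotated gene begins, at chr16:48247569-48247789 for ABCC11 and chr16:48156019-48156243 for ABCC12.
ABCC11: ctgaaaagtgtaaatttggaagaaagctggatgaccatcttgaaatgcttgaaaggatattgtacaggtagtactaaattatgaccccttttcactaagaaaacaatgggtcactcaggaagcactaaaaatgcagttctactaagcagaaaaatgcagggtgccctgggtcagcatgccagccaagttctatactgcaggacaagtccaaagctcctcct
ABCC12: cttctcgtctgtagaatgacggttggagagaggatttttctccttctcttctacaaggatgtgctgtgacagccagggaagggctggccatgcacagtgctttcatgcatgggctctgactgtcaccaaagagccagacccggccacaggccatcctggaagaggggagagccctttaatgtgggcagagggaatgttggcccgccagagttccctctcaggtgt
RefSeq windows of 250 bases before the start were held for 35 of the 45 members and for 35116 promoters in all, with a median GC content of 61.6% and 58%. They were searched on both strands for TATAAA (in 10.7% of all promoters and 5 of the 35 members), CCAAT (32.0% and 6), GGGCGG (42.6% and 18), CACGTG (6.34% and 4), AGGTCA (12.1% and 1), TGACTCA (4.20% and 0), TGACNNNGC (10.9% and 6) and the sterol regulatory element of the LDL receptor gene (0.0342% and 0). Neither of the stretches of ABCC11 and ABCC12 holds any of the 8. AGGTCA, the half-site of several nuclear receptors, was found in ABCF1 alone among the 35. The ABCB6 window held 4 of the 8, among them CACGTG and the core of the antioxidant response element, TGACNNNGC. Matches of different motifs may overlap.

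ABCA5, a lipid transporter of late endosomes and lysosomes, rose in all 4 variants. The gene (ENSG00000154265, chr17:69244311-69327244, minus strand) stood at 0.858, 0.755 and 0.907 CPM in the parental libraries. It stood at 4.78, 4.22 and 4.82 CPM in variant A, 14.8, 13.6 and 14.8 CPM in LTED-B, 7.55, 7.75 and 7.01 CPM in LTED-D, and 2.94, 3.16 and 2.84 CPM in LTED-E. The lowest variant library was thus above the highest parental one, with LTED-B highest. The log2 change ran from 1.84 ± 0.12 in LTED-E to 4.11 ± 0.10 in LTED-B (edgeR adjusted p = 1.1e-10 and 1.8e-16). ABCA5 is the last of 5 members in a row on chromosome 17, after ABCA8, ABCA9, ABCA6 and ABCA10, all on the minus strand. None of the other 4 was called in any LTED variant of either line, and ABCA10, which overlaps ABCA5 by 536 bases, changed by -0.23 to 0.18 in the MM134 variants. In SUM44, ABCA5 fell in LTED-B by 1.44 on the log2 scale and changed by -0.42 in LTED-A, where it was not called. The 40 genes around it had a median log2 change of 0.49 in SUM44 LTED-B.

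ABCC2, which exports bilirubin glucuronide and other conjugates at the apical membrane, rose in MM134 and fell in SUM44. The gene (ENSG00000023839, chr10:99782640-99852594, plus strand) stood at 0.829, 0.755 and 0.778 CPM in MM134 parental cells. It stood at 3.85, 4.03 and 4.37 CPM in variant A, 1.81, 2.05 and 1.62 CPM in LTED-B, 2.23, 2.50 and 1.88 CPM in LTED-D, and 1.16, 1.42 and 1.59 CPM in LTED-E. All variant libraries lay above the parental ones, by a log2 change of 0.84 ± 0.17 in LTED-E to 2.36 ± 0.15 in LTED-A (edgeR adjusted p = 0.00033 and 1.1e-10). The call in LTED-E was lost without LTED-E replicate 2 (log2 change 0.83) or 3 (0.73), and without MM134 parental replicate 1 (0.88), 2 (0.81) or 3 (0.84). In SUM44 the level was 77.2, 80.8 and 75.1 CPM in SUM44F, 49.1 and 50.9 CPM in variant A and 28.9, 30.0 and 29.4 CPM in LTED-B. SUM44F and the SUM44 variants did not overlap, and LTED-B was the lowest of them. SUM44PE differed from SUM44F by 0.05 on the log2 scale and was not called. ABCC2 fell by 0.63 in LTED-A and by 1.40 in LTED-B on the log2 scale (edgeR adjusted p = 3.4e-05 and 3.8e-08), and the call in LTED-A was lost without LTED-A replicate 1 (-0.56). Even in LTED-B its level remained above that of every MM134 library. The stretch before its start (chr10:99782390-99782639, plus strand, RefSeq GRCh38.p14) is shown since the direction differed between the lines, with TATAAA in capitals 236 bases before the start.
ABCC2: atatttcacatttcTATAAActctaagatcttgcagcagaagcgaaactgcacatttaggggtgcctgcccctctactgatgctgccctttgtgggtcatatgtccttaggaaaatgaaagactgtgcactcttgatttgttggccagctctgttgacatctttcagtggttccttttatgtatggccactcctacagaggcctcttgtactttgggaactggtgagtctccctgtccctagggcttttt

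The other members that rose in 3 MM134 variants were ABCA12, ABCB6 and ABCC3. ABCA12, which carries glucosylceramide into lamellar granules, rose most in LTED-A, from 1.06, 1.35 and 1.30 CPM in parental cells to 18.0, 17.0 and 16.8 CPM. Its log2 change was 3.80 in LTED-A, 1.29 in LTED-B, 1.00 in LTED-D and -0.01 in LTED-E, and the value in LTED-E was not called. SNHG31, a noncoding gene that overlaps ABCA12 on the opposite strand, changed by -0.33, -0.52, -0.86 and -0.39 in the same variants. ABCC3, a basolateral exporter of glucuronides and bile salts, stood at 21.6, 22.1 and 21.6 CPM in parental cells. It rose to a mean of 70.7 ± 1.65 CPM in LTED-A, 55.1 ± 2.54 in LTED-B and 43.0 ± 0.899 in LTED-E, but fell to 2.16, 2.39 and 2.46 CPM in LTED-D. The log2 change of ABCC3 was 1.69, 1.34 and 0.99 in LTED-A, LTED-B and LTED-E, and -3.20 ± 0.06 in LTED-D (edgeR adjusted p = 3.2e-18).

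ABCC8 fell in all 4 MM134 variants. It encodes the sulfonylurea receptor, a regulatory subunit of potassium channels that close on ATP, and it is a member of the family that moves no known substrate. The gene (ENSG00000006071, chr11:17392498-17476894, minus strand) stood at 78.2, 80.5 and 81.4 CPM in MM134 parental cells. It stood at 8.33, 8.39 and 7.59 CPM in variant A, 21.5, 21.9 and 20.2 CPM in LTED-B, 12.2, 13.6 and 14.6 CPM in LTED-D, and 2.87, 2.16 and 2.78 CPM in LTED-E. All variant libraries lay far below the parental ones, and LTED-E was the lowest. The log2 change was -1.91 ± 0.06 in LTED-B and -4.93 ± 0.08 in LTED-E (edgeR adjusted p = 5.1e-15 and 1.6e-19). KCNJ11, the pore subunit that pairs with ABCC8 and was looked up after the values of ABCC8 were seen, fell by 0.72 in LTED-A, 0.59 in LTED-D and 1.45 in LTED-E on the log2 scale and changed by -0.28 in LTED-B, while in SUM44 it rose by 0.79 in LTED-A and 0.95 in LTED-B. In SUM44, where ABCC8 stood at 5.41 to 7.96 CPM on average in the 4 groups, its log2 change was -0.56 and -0.12, and neither was called.

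ABCA2, a lysosomal transporter of sterols and sphingolipids, fell in all 4 MM134 variants. The gene (ENSG00000107331, chr9:137007234-137028915, minus strand) stood at 102.1, 108.3 and 101.5 CPM in parental libraries. It stood at 47.6, 47.4 and 52.1 CPM in variant A, 55.7, 54.3 and 52.9 CPM in LTED-B, 43.97, 40.5 and 44.4 CPM in LTED-D, and 32.1, 30.4 and 33.2 CPM in LTED-E. The parental and variant libraries did not overlap. The log2 change ran from -0.93 ± 0.04 in LTED-B to -1.69 ± 0.05 in LTED-E (edgeR adjusted p = 2.4e-12 and 4.1e-16). In SUM44 LTED-A, ABCA2 rose by 0.73 ± 0.11 on the log2 scale (edgeR adjusted p = 0.00037), a call lost without LTED-A replicate 1 (0.62), LTED-B replicate 1 (0.73) or 3 (0.73), or SUM44F replicate 2 (0.76). The 40 genes around it had a median log2 change of 0.35 there. The stretch before the ABCA2 start (chr9:137028923-137029172, minus strand, RefSeq GRCh38.p14) is shown as that of the lipid transporter that fell throughout, with TGACNNNGC in capitals, read on the other strand and beginning 113 bases before the start.
ABCA2: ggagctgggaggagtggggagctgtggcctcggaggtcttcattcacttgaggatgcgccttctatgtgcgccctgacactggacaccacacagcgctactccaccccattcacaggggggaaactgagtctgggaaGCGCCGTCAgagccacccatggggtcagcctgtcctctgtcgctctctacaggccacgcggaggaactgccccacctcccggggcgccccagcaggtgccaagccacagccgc

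**Figure D4:**
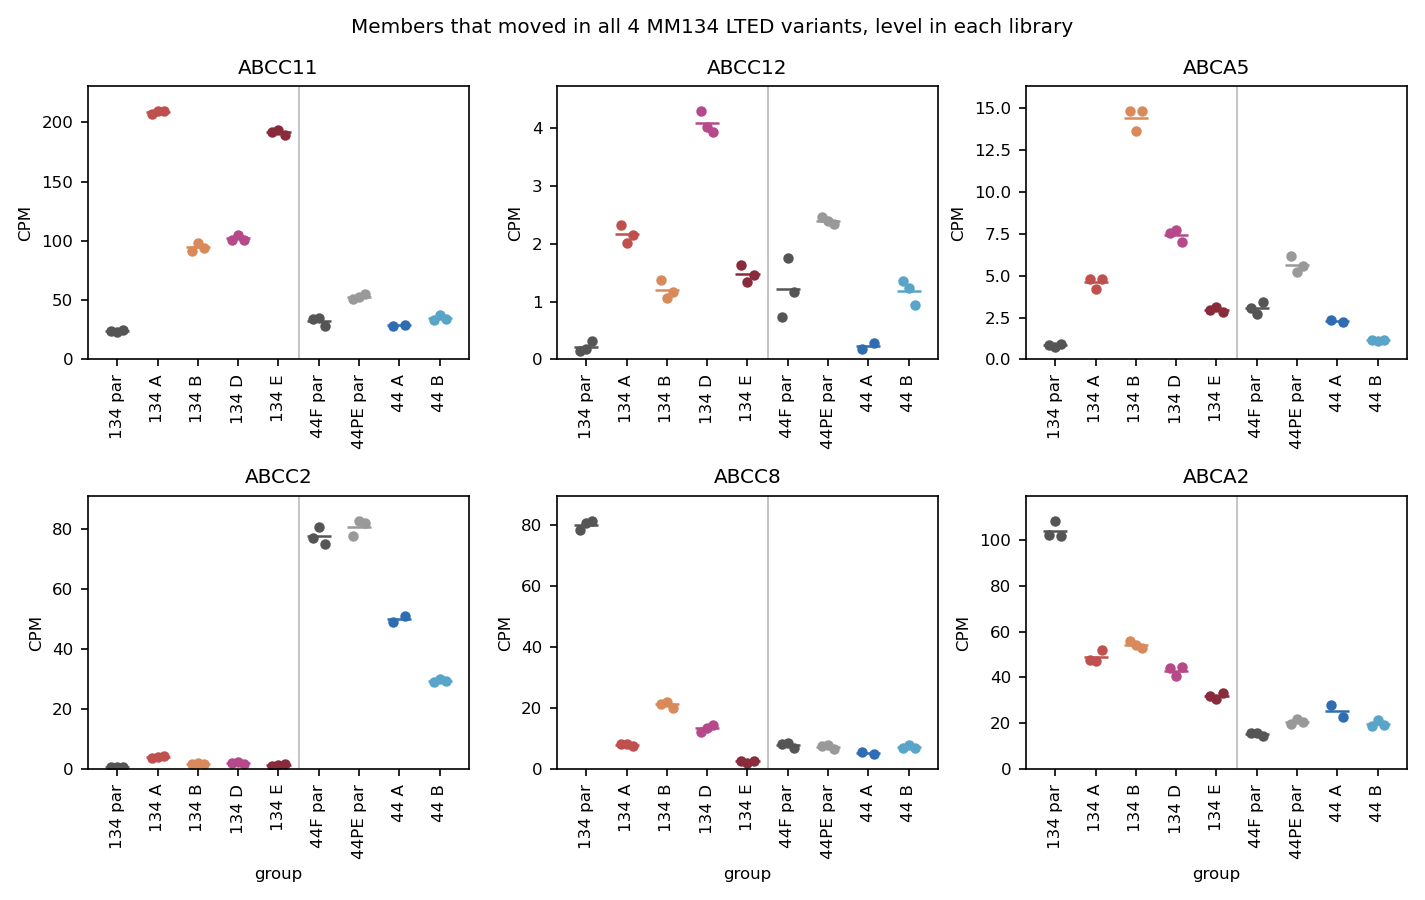
Level in CPM (linear axes from 0) of the 6 members called in the same direction in all 4 MM134 LTED variants, in each sample of the 9 groups. Points are samples, short lines group means, groups are named by the number of the cell line, par for parental and the letter of the variant. ABCC11 runs from 24.3, 23.2 and 24.5 CPM in MM134 parental cells to at least 189.6 CPM in LTED-A and LTED-E, while ABCC8 runs from a mean of 80.0 CPM to one of 2.60 CPM in LTED-E.

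ABCA1, which passes cellular cholesterol to apolipoprotein A-I and is a classic target of the sterol-sensing receptor LXR, went in opposite directions among the MM134 variants. It stood at 6.78, 6.53 and 7.52 CPM in parental cells, at 19.8, 20.1 and 21.4 CPM in variant A and at 20.6, 20.4 and 18.9 CPM in LTED-D. It stood at 4.76, 4.56 and 4.63 CPM in LTED-B and at 0.494, 0.466 and 0.467 CPM in LTED-E. LTED-A and LTED-D thus lay above the parental cells and LTED-E far below them, with log2 changes of 1.56, 1.54 and -3.85 (edgeR adjusted p = 8.1e-14, 1.9e-13 and 2.1e-16). In LTED-B the change was -0.57 and not called. ABCA1 and ABCC3 were the 2 members called in opposite directions in MM134 variants, against 0.944% of all genes. ABCG1, another LXR target, changed by -0.32 to 0.07 on the log2 scale and was not called in any MM134 variant.

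Across the 4 MM134 variants 17 of the 40 members differed, against 19.6% of all genes. Among the members detected in parental cells, the widest spreads of log2 change were those of ABCA1 (5.40), ABCC3 (4.89), ABCA12 (3.81) and ABCC8 (3.02). Members called in fewer variants included ABCC5, an exporter of cyclic nucleotides, which fell by 0.77 in LTED-B and 0.86 in LTED-D. ABCD3 rose by 0.63 and 0.62 in LTED-A and LTED-B. In LTED-D alone ABCA3 (1.21), ABCB9 (0.71), ABCF2 (0.67), ABCC6 (-1.09) and ABCC9 (-0.61) were called, and ABCC9 was lost without MM134 parental replicate 1 (-0.55) or 3 (-0.56). The genes around ABCA3 had a median log2 change of 0.50 in LTED-D and those around ABCC6 one of 0.47. ABCC6 also has annotated pseudogene copies, ABCC6P1 and ABCC6P2, listed at up to 0.821 CPM, so reads may have been divided among them. In LTED-E, ABCB10, a mitochondrial exporter needed for heme synthesis, rose by 0.66, and ABCB4, the phosphatidylcholine flippase of bile, rose by 1.12, a call lost without MM134 parental replicate 2 (1.03) or 3 (1.03). ABCB11, the bile salt export pump, had 2, 2 and 3 counts in parental cells and 67, 34 and 33 in LTED-A, which put it at least 7.26-fold higher than a floor of 3 counts per library.

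In SUM44, 11 of 41 members changed in at least 1 variant, against 22.0% of all genes. LTED-A had 8 changed members against 13.7% of all genes, with 3 up (6.39%) and 5 down (7.28%), and LTED-B had 7 against 17.3%, with 2 up (8.69%) and 5 down (8.57%). The median log2 change over the members was -0.23 in LTED-A and -0.14 in LTED-B, beside -0.06 and -0.09 over all genes. Both counts were unchanged without SUM44F replicate 1, although ABCC12 entered the LTED-A list and ABCD4 (log2 change -0.60) left it. The LTED-A count was 4 without LTED-A replicate 1, which leaves that variant with 1 sample whose spread is assumed to be that of the other groups. In both variants 1 member rose, ABCB6 (3.87% of all genes), and 3 fell, ABCB11, ABCC2 and ABCD4 (4.75%).

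ABCB6 (ENSG00000115657, chr2:219209772-219218994, minus strand) rose in both cell lines. It stood at 45.9, 47.8 and 40.7 CPM in SUM44F, 108.0 and 110.7 CPM in variant A and 114.6, 122.4 and 120.1 CPM in LTED-B. The variants lay above the parental libraries without overlap. The log2 change was 1.29 ± 0.08 and 1.41 ± 0.07 (edgeR adjusted p = 6.8e-07 and 1.4e-07). In MM134 its mean level was 56.2 ± 1.496 CPM in parental cells and 91.6, 94.1, 66.3 and 92.3 CPM in variants A, B, D and E, with a log2 change of 0.70, 0.75 and 0.73 where it was called and 0.25 in LTED-D. Its mitochondrial relative ABCB8 changed by 0.22 to 0.58 in the 6 variants and was not called in any of them.

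ABCB11 (ENSG00000073734, chr2:168915498-169031324, minus strand) had 96, 136 and 186 counts in SUM44F, or 2.08, 2.66 and 2.07 CPM. It had 0 counts in both samples of LTED-A, and 4, 1 and 3 counts in LTED-B. All variant libraries lay below all SUM44F libraries. In LTED-A the gene was at least 45.2-fold lower, against a floor of 3 counts per library, and in LTED-B its log2 change was -5.45 ± 0.40 (edgeR adjusted p = 4.4e-06). SUM44PE, the culture from which SUM44F was adapted, had 18, 17 and 11 counts, or 0.488, 0.359 and 0.277 CPM, so that the parental cultures did not overlap either (log2 difference -2.61 ± 0.30, edgeR adjusted p = 5.9e-05).

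ABCD4 (ENSG00000119688, chr14:74285269-74303055, minus strand), which releases cobalamin from lysosomes, stood at 40.8, 43.5 and 37.4 CPM in SUM44F, 26.1 and 27.2 CPM in variant A and 26.0, 27.4 and 25.9 CPM in LTED-B. Both variants lay below all SUM44F libraries and overlapped each other, with log2 changes of -0.60 ± 0.08 and -0.62 ± 0.07 (edgeR adjusted p = 0.00024 and 6.7e-05), both just past the fold threshold. The LTED-A call was lost without LTED-A replicate 1 (-0.53) or SUM44F replicate 1 (-0.60) or 2 (-0.54), the LTED-B call without SUM44F replicate 2 (-0.56), and DESeq2 called neither (-0.56 and -0.57).

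The other SUM44 calls were made in a single variant. ABCA12 fell in LTED-A, from 33.5, 36.2 and 32.4 CPM in SUM44F to 10.9 and 9.79 CPM, and stayed at 33.9, 33.0 and 32.3 CPM in LTED-B. The log2 difference of ABCA12 between the variants was -1.68 ± 0.09 (edgeR adjusted p = 6.2e-07). ABCC5 fell by 1.05 in LTED-B and changed by 0.36 in LTED-A, with a difference of 1.41 between the variants. ABCC2 also differed between them, by 0.77, and so did ABCA3, by 0.59, though the ABCA3 difference was lost without each of LTED-A replicates 1 (0.56) and 2 (0.63), LTED-B replicates 1 (0.55), 2 (0.63) and 3 (0.59) and SUM44F replicates 1 (0.59) and 2 (0.60). These 4 members, 3 higher and 1 lower in LTED-A, compare with 7.42% of all genes that differed between the variants (3.56% higher and 3.86% lower). ABCA3 rose in LTED-A by 0.73, a call lost without LTED-A replicate 1 (0.73), and the 40 genes around it had a median log2 change of 0.52 there. ABCE1 rose in LTED-B by 0.84 ± 0.09 (edgeR adjusted p = 3.3e-05).

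ABCA1 in SUM44F depended on replicate 1, the library with fibroblast markers. It stood at 10.9, 3.13 and 2.84 CPM in SUM44F replicates 1, 2 and 3, at 0.321 and 0.438 CPM in variant A and at 1.75, 1.90 and 1.82 CPM in LTED-B. The variant libraries were below all SUM44F libraries. The other parental culture, SUM44PE, had a mean of 1.11 CPM (0.976 to 1.31), below every LTED-B library and above both LTED-A samples. The log2 change in LTED-A was -3.82 ± 0.61 with SUM44F replicate 1 and -2.91 ± 0.22 without it (edgeR adjusted p = 0.00061 and 3.8e-06). The call was lost without LTED-A replicate 1 (-3.63) or 2 (-4.11), or without LTED-B replicate 1 (-3.83), 2 (-3.83) or 3 (-3.83). In LTED-B the log2 change was -1.62 with and -0.71 without SUM44F replicate 1, and neither was called.

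**Figure D5:**
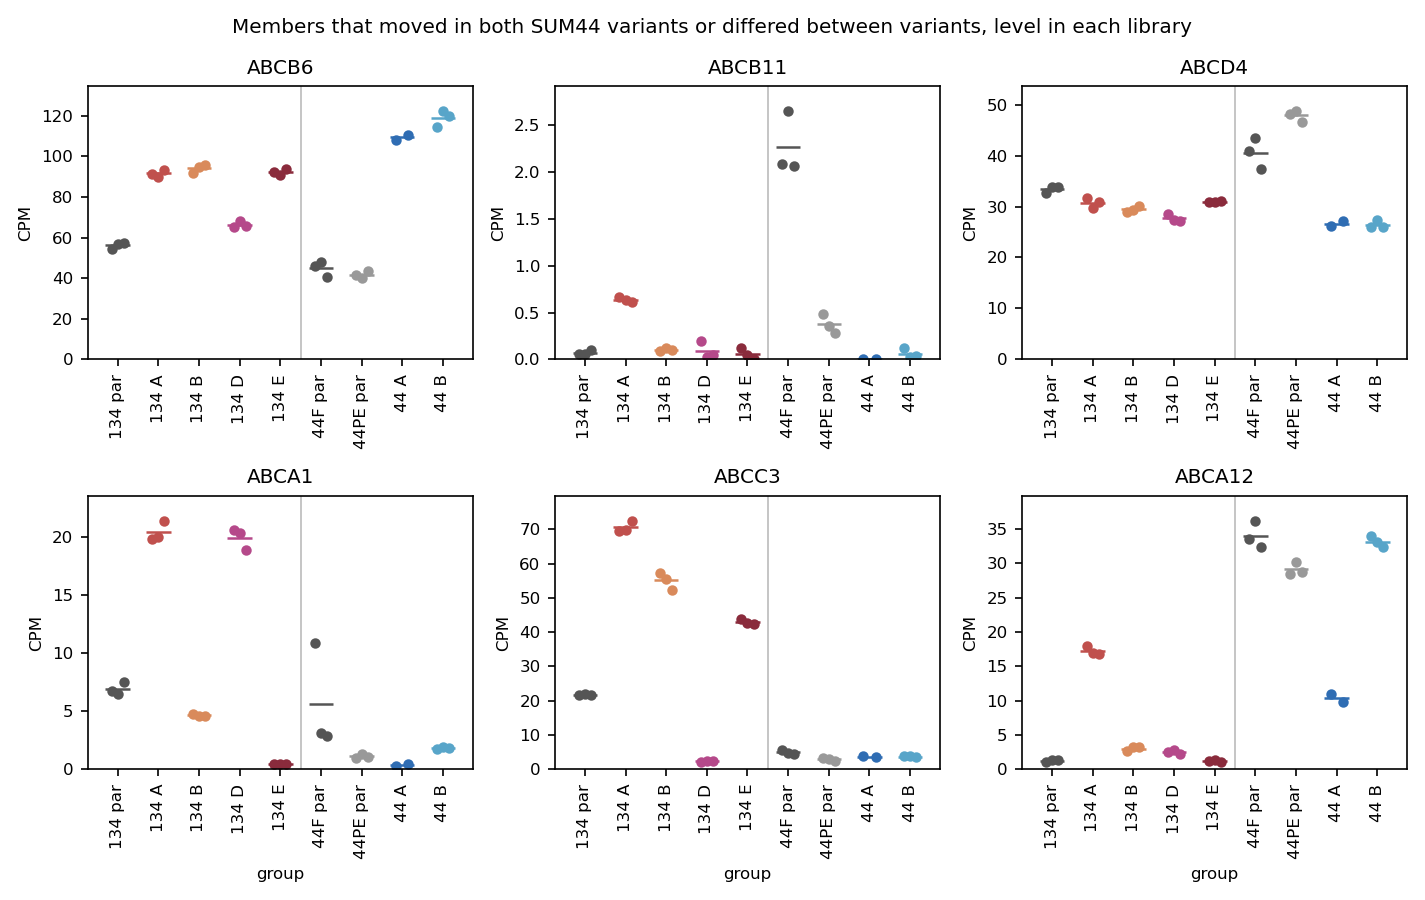
Level in CPM (linear axes from 0) of ABCB6, ABCB11 and ABCD4, called in both SUM44 LTED variants, and of ABCA1, ABCC3 and ABCA12, which differed between variants, in each sample of the 9 groups. Points are samples, short lines group means, groups are named by the number of the cell line, par for parental and the letter of the variant. ABCB6 is raised in both cell lines, and SUM44F replicate 1 stands at 10.9 CPM for ABCA1 above the other SUM44F libraries.

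Between the parental SUM44 cultures 3 of 41 members differed, against 5.57% of all genes, with 2 higher in SUM44PE (2.85% of all genes) and 1 lower (2.72%). Besides ABCB11, which was lower in SUM44PE, ABCC11 was higher in SUM44PE by 0.70 and ABCA5 by 0.87 on the log2 scale. The ABCA5 call was lost without SUM44F replicate 2 (0.78) or SUM44PE replicate 1 (0.82) or 3 (0.88). Without SUM44F replicate 1, ABCA1 was also called, at -1.41, in place of -2.33 and no call.

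The mean change of the MM134 variants was then tested against that of the SUM44 variants in a fit of both cell lines. The difference passed the thresholds in 11 of 41 members, against 20.9% of all genes, and was positive in 8 (10.8%) and negative in 3 (10.2%). ABCA5 rose by a mean of 2.89 in MM134 and changed by -0.93 in SUM44, a difference of 3.82 ± 0.14 (edgeR adjusted p = 5e-16). ABCC11 had means of 2.56 and -0.04, ABCC12 3.20 and -1.21, ABCC2 1.48 and -1.02, and ABCA12 1.52 and -0.88. The ABCA12 means cover unlike variants, from -0.01 to 3.80 in MM134 and -1.72 and -0.04 in SUM44. The SUM44 mean of ABCC12 covers -2.34 and -0.08. ABCC8 had means of -3.18 and -0.34, and ABCA2 of -1.25 and 0.55. ABCB6 rose in both lines, with means of 0.61 and 1.35, with the larger rise in SUM44. The means of ABCA1 (-0.33 and -2.72) and ABCC3 (0.21 and -0.41) cover opposite changes among the MM134 variants, and the ABCC3 difference was lost without SUM44 LTED-A replicate 2 (0.56), LTED-B replicate 3 (0.57) or SUM44F replicate 1 (0.50). The fitted difference of ABCB11 depends on the count assumed for a sample with none.

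Genes that work beside the transporters were counted from 6 lists. Over all genes tested, 10.5%, 8.11%, 9.63% and 8.71% rose and 9.82%, 7.75%, 7.95% and 10.3% fell in the MM134 variants A, B, D and E, and 6.39% and 8.69% rose and 7.28% and 8.57% fell in SUM44 LTED-A and LTED-B. Of the list of conjugation and xenobiotic response, 10 genes were tested in each line. In MM134, 5, 6, 3 and 4 of them rose in variants A, B, D and E and 0 fell, while in SUM44 0 rose and 4 and 3 fell in LTED-A and LTED-B. The median log2 change of the 10 genes was 0.50, 0.77, 0.37 and 0.53 in the MM134 variants and -0.36 and -0.24 in the SUM44 variants, beside -0.03 to 0.02 and -0.06 and -0.09 over all genes. NQO1, a quinone reductase, rose by 3.12, 2.40, 1.30 and 3.24 in the MM134 variants and changed by -0.60 and -0.08 in SUM44, where the first value passed the test. MVP, the major vault protein, rose by 1.27 to 1.90 in MM134 and fell by 0.72 and 1.35 in SUM44. AHR, the aryl hydrocarbon receptor, rose by 1.72, 0.88 and 1.35 in LTED-A, LTED-B and LTED-E and fell by 0.89 and 1.57 in SUM44.

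Of 22 genes of peroxisomal import and oxidation, 3, 4, 5 and 1 rose and 1, 1, 1 and 1 fell in the MM134 variants A, B, D and E, beside 8.11% to 10.5% of all genes that rose and 7.75% to 10.3% that fell. ACSL1, which activates fatty acids, fell by 1.52, 1.203, 1.22 and 2.17, and PEX7, an import receptor, rose by 0.82, 0.64, 0.67 and 0.64. In SUM44, 2 and 3 of the 22 rose and 3 and 2 fell, beside 6.39% and 8.69% up and 7.28% and 8.57% down over all genes. There PEX7 had a mean of 10.0 CPM in SUM44F, 10.2 in LTED-A and 28.8 in LTED-B. PEX3 had means of 10.4, 6.75 and 21.1 CPM in the same groups. PEX6 had means of 33.4, 14.3 and 16.8 CPM there, and PEX10 had 36.8, 65.2 and 59.4 CPM. The chromosomal neighbours of the list genes were not examined. Of 9 genes of sterol sensing by LXR, 0, 1, 1 and 0 rose and 0 fell in the MM134 variants, and 0 and 1 rose and 1 and 2 fell in SUM44. MYLIP, an LXR target that degrades the LDL receptor, fell by 1.197 and 1.75 in SUM44 and was not called in MM134. The parental cultures differed as well, with MYLIP means of 130.0 CPM in SUM44F and 79.5 CPM in SUM44PE, beside 56.6 and 38.6 CPM in LTED-A and LTED-B. NR1H3, which encodes LXR alpha, rose by 0.65 in MM134 LTED-D and 0.80 in SUM44 LTED-B. NCOA1, a nuclear receptor coactivator, rose by 0.69 in MM134 LTED-B, and LPCAT3, a phospholipid-remodelling enzyme, fell by 0.63 in SUM44 LTED-B. Of the 12 genes of mitochondrial heme and iron-sulfur synthesis, 2, 3, 3 and 0 rose in MM134 and 0 fell, and in SUM44 0 and 1 rose and 1 and 1 fell. CPOX, an enzyme of heme synthesis, rose by 1.93, 1.52 and 2.45 in LTED-A, LTED-B and LTED-D and changed by 0.31 in LTED-E. UROD, another enzyme of heme synthesis, fell by 0.75 and 1.00 in SUM44. Of 10 genes of ribosome recycling and stress sensing, 0, 0, 2 and 0 rose in MM134 and 2 and 5 in SUM44 LTED-A and LTED-B (6.39% and 8.69% of all genes rose) and 0 fell in any variant, with HBS1L, a ribosome rescue factor, at 2.11 in LTED-B. Among the ABC proteins that carry another symbol, TAP1, the peptide pump of antigen presentation, rose in all 4 MM134 variants by 0.63 to 1.32, and TAP2 rose in 3 of them. CFTR, the chloride channel, fell by 0.91 in LTED-E.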

How the data were processed

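Total RNA was sequenced from 27 libraries of 9 groups with a stranded total RNA kit. The authors quantified reads with Salmon 0.6.0 on hg38 and Ensembl release 82, per the submitters' processing notes, and deposited estimated counts per gene that were not normalized. Whether strand was used in counting is not given in the sources used here. Estimated counts were rounded, and genes with few counts were removed by edgeR's filter. Replicates 2 and 3 of SUM44 LTED-A were averaged. MM134 and SUM44 were fitted separately, with a fit of both lines for comparisons across them, by edgeR 4.0.16 in R 4.3.3 with TMM scaling and the quasi-likelihood test, tested on simulated data. Calls needed a fold change over 1.5 and a Benjamini-Hochberg adjusted p under 0.001. CPM used TMM-scaled library sizes unless counts are given, lengths are those of the representative transcript in GENCODE 44, and 56434 of 60619 genes matched it. DESeq2 1.42.0, other scaling, filters, thresholds, sample sets and left-out libraries were alternatives. The members named with values were those called in 1 direction in at least 3 MM134 or both SUM44 variants, those called in opposite directions, those whose change differed between cell lines and the 8 highest by level, and other members were given by call and log2 change. The members and lists were chosen with earlier results of these data known. A level at or under 3 counts in all libraries of a group was treated as below detection, which covers counting error only. Some items are not reported here.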

Additional observations from a re-analysis of the deposited data

Results flagged for a closer look

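The mean log2 change of the 4 MM134 LTED variants was set against that of the 2 SUM44 LTED variants in a test of the difference itself (edgeR). The difference passed the thresholds in 11 of 41 members, against 20.9% of all genes. The difference, MM134 minus SUM44, was 3.82 for ABCA5, 4.39 for ABCC12, 2.58 for ABCC11, 2.49 for ABCC2 and 2.39 for ABCA12. For ABCC8 it was -2.85, for ABCA2 -1.80 and for ABCB6 -0.75. For ABCA1 it was 2.34, and 1.43 without SUM44F replicate 1, the library with fibroblast markers. For ABCC3 it was 0.61, and 0.50 with no call without that library. For ABCB11 the fitted value was 8.58, which depends on the count assumed for samples with 0 counts and is no bound.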

How the results depend on the processing

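No called log2 fold change changed direction under any alternative run. Each called log2 fold change was checked in every run that refitted it, so 1 fold change is counted several times. With 1 library left out, 1589 of these checks kept the call and 44 lost it. Under the other settings 677 checks kept it and 52 lost it. Of the 677, 102 came from the adjusted p under 0.05, which is looser and can lose no call. With a fold minimum of 2 the counts were 7 in MM134 LTED-B, 7 in MM134 LTED-E, 4 in SUM44 LTED-A, 2 between the SUM44 variants, 1 between SUM44PE and SUM44F, 4 up in at least 3 MM134 variants and 1 down in both SUM44 variants. Between the SUM44 variants, DESeq2 called 7, an adjusted p under 0.05 gave 9, no filter on low counts 8, and LTED-A replicates 2 and 3 kept separate, an alternative chosen after seeing the data, 7. Between SUM44PE and SUM44F, DESeq2 called 5, an adjusted p under 0.05 gave 7 and no filter 5. Fits of the parental cells and 1 variant only gave 4 in SUM44 LTED-A and 1 down in both SUM44 variants. The cause of these moves was not tested. With 1 library left out the counts ranged from 12 to 12, 11 to 13, 14 to 16 and 9 to 11 in the MM134 variants A, B, D and E, 17 to 18 among them, 7 to 7 up and 2 to 2 down in at least 3, 18 to 21 between MM134 parental cells and SUM44F, 4 to 8 and 6 to 8 in SUM44 LTED-A and LTED-B, 3 to 5 between these, 2 to 4 between SUM44PE and SUM44F, 1 to 2 up and 1 to 3 down in both SUM44 variants, and 10 to 11 for the difference between cell lines. The values of 4 in SUM44 LTED-A, of 1 down and of 2 up in both came without LTED-A replicate 1. Same-numbered samples did not deviate together in the median (correlations of -0.396 to 0.267, median -0.0115, in MM134 and -0.196 to 0.226, median 0.00858, in SUM44). In MM134 3 of 15 and in SUM44 4 of 11 samples correlated best with their own number. Such correlations over many genes cannot show a pairing limited to few genes. With the replicate number as a block the counts were 18 between MM134 parental cells and SUM44F, 3 between the SUM44 variants, 12, 11, 15 and 11 in the MM134 variants, 17 among them, 7 up and 2 down in at least 3, 8 and 7 in the SUM44 variants, 1 up and 3 down in both, 3 between SUM44PE and SUM44F and 11 for the difference between lines. Depth limits ABCB1, ABCB11 and ABCG2, which had few counts in most groups. It also limits ABCA4 in MM134 parental cells, and ABCC12 in MM134 parental cells and SUM44 LTED-A.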
